A study of Homo sapiens with 4 samples.

Results

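The genes described here are 10 targets of the hypoxia response that lie outside the glycolytic pathway, NDRG1, P4HA1, STC1, MXI1, PPFIA4, PFKFB4, ERO1L, ANGPTL4, VEGFA and ADM, out of 26726 genes listed in the deposited tables. They were picked by their symbols as hypoxia targets and in part chosen by their measured values, since several of them were known to be lower in knockout cells. Their differences between the groups are therefore given as a description, with no test. RNA sequencing covered HN12, a human head and neck squamous cell carcinoma (HNSCC) line, in 4 libraries. Of these, 2 came from cells in which ATAD3A had been knocked out with CRISPR/Cas9 (KO) and 2 from the parental cells (WT), without a hypoxia treatment named in the labels. The labels give DMEM with fetal bovine serum and antibiotics as the medium, while the study's methods give a mixed base medium. ATAD3A is a mitochondrial ATPase that spans the mitochondrial membranes. The KO cells descend from clones grown from single cells, so a trait of a clone and an effect of the knockout cannot be told apart. Each group is represented by duplicate cultures of 1 cell line. All 10 genes had enough reads to enter the fit over 15104 genes.

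Cells sense oxygen through the hypoxia-inducible factors (HIFs). In oxygen, prolyl hydroxylases mark the HIF alpha subunits for destruction by the VHL ubiquitin ligase, and when oxygen falls the alpha subunit persists, pairs with ARNT and binds short DNA motifs near its target genes. The targets raise glycolysis, but they also remodel collagen, adjust protein folding in the endoplasmic reticulum and send signals to blood vessels, and tumours of the head and neck are often hypoxic. Several of the genes also answer to other inputs, including nutrient stress and growth factor signalling.

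The HIF motif has the core ACGTG or GCGTG, written CACGT or CACGC when it lies on the other strand. It was searched on both strands in the RefSeq promoters (GRCh38.p14, 250 bases before to 50 bases after each annotated start), where 7 of the 10 genes were matched with 9 promoters. MXI1 gave 3 of these 9 promoters. A core was found in 8 of the 9, against 48.5% of all 35116 promoters. Counted by gene, a core was in all 7, against 14318 of all 27305 genes. Other hypoxia targets had one in 47 of 54 promoters (87.0%) and 35 of 41 matched genes. Glycolytic targets had one in 24 of 36 promoters (66.7%) and 16 of 17 matched genes, so the presence of a core is not particular to the 10 genes. The matched promoters had a median GC content of 69.0%, other hypoxia targets 69.2%, glycolytic targets 67.8% and all promoters 58.7%. GC-rich windows hold more of these letters, and how far GC content goes with the share of cores was not tested. The stretches below are shown because they hold cores in 4 genes that were lower and 1 that was higher in KO libraries; they read 5′ to 3′ on the gene's strand, with each core in capitals.

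PPFIA4, chr1:203026350-203026433, plus strand: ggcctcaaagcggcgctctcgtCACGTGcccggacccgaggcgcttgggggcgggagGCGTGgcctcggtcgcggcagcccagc
MXI1, chr10:110210082-110210144, plus strand: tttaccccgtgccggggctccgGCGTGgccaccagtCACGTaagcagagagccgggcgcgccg
P4HA1, chr10:73096926-73096974, minus strand: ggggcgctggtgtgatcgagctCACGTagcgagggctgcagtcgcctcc
PFKFB4, chr3:48556943-48556991, minus strand: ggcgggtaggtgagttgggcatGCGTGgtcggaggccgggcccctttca
ADM, chr11:10304950-10304998, plus strand: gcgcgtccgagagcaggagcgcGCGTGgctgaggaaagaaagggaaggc

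In PPFIA4 the first core is the palindrome CACGTG, which reads as ACGTG on both strands and is also the E-box bound by MYC and MAX family proteins. That E-box stood in 1 of the 9 promoters and in 7.26% of all promoters. A further core of PPFIA4 began 84 bases before the start. The cores began 86 bases before the RefSeq start in P4HA1, 166 in PFKFB4 and 101 in ADM. The gene positions given below come from GENCODE, where a gene can begin further upstream. Those positions contain the stretches shown for MXI1, P4HA1, PFKFB4 and ADM. MXI1 has 3 annotated starts, of which the stretch shown precedes the second, with cores 127 and 113 bases before it; the promoter of its first start held none. ANGPTL4 had 1 core 234 bases before its start, and ERO1L, listed in RefSeq as ERO1A, had 2 before and 1 after its start. A match of these letters is a description of the window and not evidence of binding. The promoters were searched without regard to expression. All 7 matched genes held a core, so its presence could not separate them, and only ADM of these lay above 0 in the fold changes given below. NDRG1, STC1 and VEGFA had no matched promoter and were not searched.

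Library totals lay between 13569971 and 18943547 counts on genes. At these depths 3 counts, the limit that a count of 0 allows, correspond to at most 0.221 CPM (counts scaled to library size), and such limits cover counting error only. ATAD3A (ENSG00000197785) was at 12.7 ± 2.11 RPKM (SD, n = 2) in KO and 43.5 ± 2.80 RPKM (SD, n = 2) in WT libraries, or -1.70 ± 0.091 (standard error) as a log2 fold change, with an adjusted p of 1.58e-17 (edgeR, quasi-likelihood, Benjamini-Hochberg). All 8 squamous epithelial markers were measured, and their summed level was 1546 RPKM in both KO libraries against 437 and 436 RPKM in WT. KRT5, KRT14, KRT6A, KRT17 and PKP1 were higher and DSG3, DSP and TP63 lower in KO (edgeR, adjusted p under the threshold in all 8). Of 6 fibroblast markers 4 had values, and their sum ranged from 1.75 to 2.58 RPKM. COL1A1 made up most of it, at 159 to 228 counts a library. PDGFRB had 8 to 32 counts, and COL1A2 and COL3A1 had 3 counts or fewer in every library. Of 6 leukocyte and endothelial markers 4 had values, and together they stayed at or below 0.350 RPKM. In bulk RNA, fewer cells of a kind and less RNA per cell cannot be told apart, and the part of the keratin shift in the values below was not tested.

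Of the 10 genes, 8 were lower and 2 were higher in both KO libraries than in both WT libraries. Over all genes tested, 34.0% lay below and 34.1% above in the same sense. At an adjusted p under 0.05 the same fit called 7 of the 10 lower and 2 higher, beside 19.1% of all genes called lower and 20.4% called higher. That balance of all genes, 2891 lower and 3074 higher, turned with the scaling, to 3615 and 2508 with library totals only and to 1920 and 3442 after the correction for GC content and length. Since a fall was part of the choice, nothing is read from these counts. The median log2 fold change of the 10 genes was -0.98, against -0.0042 for all genes tested. Values ranged from -2.37 in PPFIA4 to 0.44 in ADM.

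**Figure D1:**
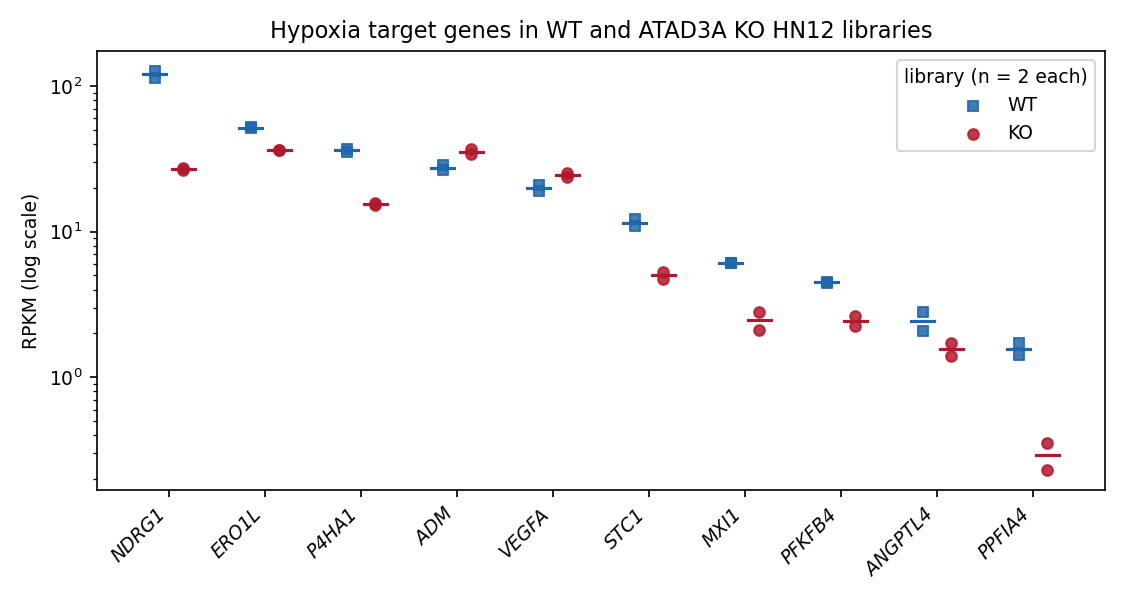
Level of each of the 10 genes in RPKM on a log scale, ordered by the WT mean, with a point for each of the 4 libraries (squares WT, circles KO) and a bar for each group mean. The KO points lie below the WT points in 8 genes and above them in ADM and VEGFA, and NDRG1 moves from the first place in WT to the third in KO.

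Levels are compared between genes in RPKM, which divides counts by gene length. In WT libraries NDRG1 was highest, followed by ERO1L, P4HA1, ADM, VEGFA, STC1, MXI1, PFKFB4, ANGPTL4 and PPFIA4, and no neighbouring pair in this order overlapped in its libraries. In KO libraries the order was ERO1L, ADM, NDRG1, VEGFA, P4HA1, STC1, MXI1, PFKFB4, ANGPTL4 and PPFIA4. There ERO1L and ADM overlapped, as did MXI1 and PFKFB4, so the order within these pairs was not resolved. P4HA1 thus stood above ADM and VEGFA in WT and below both in KO.

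NDRG1 (ENSG00000104419, chromosome 8, 133237171 to 133302022, minus strand, GRCh38 like the positions that follow), a cytoplasmic protein of stress and differentiation and one of the most widely used markers of hypoxia, was the most abundant of the 10 in WT cells. It was at 26.5 and 27.5 RPKM in the KO libraries and at 114 and 127 RPKM in the WT libraries. The groups were far apart, with 2001 and 1838 counts in KO against 6888 and 6873 in WT. Its log2 fold change was -2.09 (standard error 0.061), or 4.26-fold lower, and with each library left out in turn it lay between -2.16 and -2.01. Only 7 other genes within 5 Mb of NDRG1 were tested, and their median log2 fold change was -0.18.

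PPFIA4 (ENSG00000143847, chromosome 1, 203026498 to 203078740, plus strand), or liprin alpha 4, is a scaffold protein that binds receptor tyrosine phosphatases and is better known from synapses. It was the least abundant of the 10. It stood at 0.230 and 0.351 RPKM in KO and at 1.41 and 1.73 RPKM in WT libraries, which were 28 and 38 counts against 138 and 151. Its fall was the largest, at -2.37 on the log2 scale (standard error 0.27), or 5.17-fold, and the replicates of each group were further apart than for NDRG1. Without 1 library at a time the value ran from -2.69 to -2.09, and on the log2(RPKM + 1) scale, which understates changes at such low levels, it was -0.99. The 84 tested neighbours within 5 Mb had a median of 0.011.

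Both enzymes that act on proteins in the endoplasmic reticulum were lower. P4HA1 (ENSG00000122884, chromosome 10, 73007217 to 73096974, minus strand), the catalytic subunit of a prolyl hydroxylase that stabilises collagen, was at 15.3 and 15.8 RPKM in KO and at 35.2 and 37.2 RPKM in WT libraries. The groups did not come near each other, and the log2 fold change was -1.15 (standard error 0.078), or 2.21-fold lower. Among 82 other tested genes within 5 Mb of it the median was -0.36. Of these, 47 were called lower and 4 higher (edgeR, adjusted p under 0.05), beside 19.1% and 20.4% over all genes. How much of the fall in P4HA1 goes with that region was not tested. Once GC content and transcript length were corrected for, its value was -0.93.

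ERO1L (ENSG00000197930, chromosome 14, 52639916 to 52695900, minus strand), the oxidase that restores protein disulphide isomerase during disulphide formation, had a small and very even difference. It was at 36.5 and 36.4 RPKM in KO and at 51.5 and 52.2 RPKM in WT libraries, so each pair of replicates differed far less than the groups did. The log2 fold change was -0.44 (standard error 0.056), or 1.36-fold lower. The correction for GC content and length moved it to -0.13, and the transcript has the lowest GC content of the 10 genes, 38.7% against a median of 48.2% for all genes tested. An antisense gene shares 581 exonic bases with ERO1L, and antisense genes also share 205 with MXI1, 188 with VEGFA and 47 with P4HA1. The use of strand in counting is not given in the sources used here, so reads in those stretches are uncertain.

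**Figure D2:**
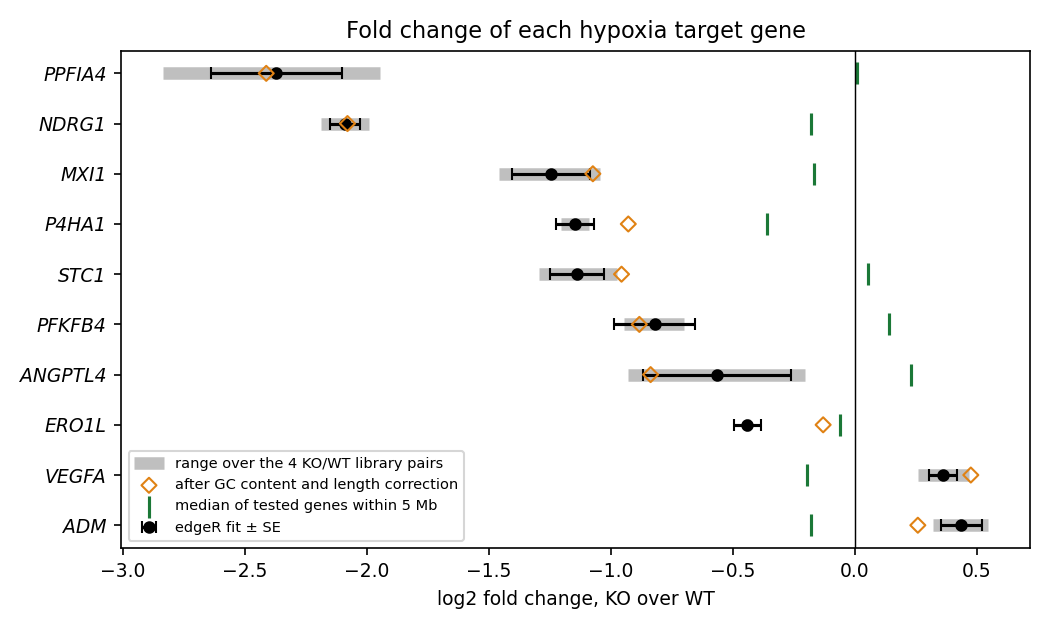
Log2 fold change of KO over WT for each of the 10 genes, with black points and bars for the edgeR value and its standard error, grey bands for the range over the 4 pairs of a KO and a WT library, orange diamonds for the value after the correction for GC content and length, and green ticks for the median of other tested genes within 5 Mb. All grey bands stay on 1 side of 0, the diamond of ERO1L moves closest to 0, and the green ticks lie between -0.36 and 0.23.

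MXI1 (ENSG00000119950, chromosome 10, 110207605 to 110287365, plus strand) encodes a repressor that pairs with MAX and opposes MYC, and it is a HIF target in several cell types. It was at 2.11 and 2.81 RPKM in KO libraries and at 6.10 and 6.09 RPKM in WT libraries. The WT pair was nearly equal, the KO pair was less even, and the groups did not overlap. The log2 fold change was -1.24 (standard error 0.16), or 2.37-fold lower, and from -1.46 to -1.05 with a library left out. It also lies on chromosome 10, where 26 neighbours within 5 Mb had a median of -0.17. Of these, 8 were called lower and 3 higher (edgeR, adjusted p under 0.05), beside 19.1% and 20.4% over all genes.

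PFKFB4 (ENSG00000114268, chromosome 3, 48517684 to 48562015, minus strand) makes and breaks down fructose 2,6-bisphosphate, a regulator of phosphofructokinase, and so acts on glycolysis from outside the pathway itself. It was at 2.24 and 2.62 RPKM in KO and 4.45 and 4.54 RPKM in WT libraries. The log2 fold change came to -0.82 (standard error 0.16), or 1.76-fold lower, with no overlap of the groups. Its 142 tested neighbours within 5 Mb had a median of 0.14. Of these, 35 were called higher and 6 lower (edgeR, adjusted p under 0.05), beside 20.4% and 19.1% over all genes. The annotation places 289 exonic bases of PFKFB4 inside UCN2 on the same strand, so reads in that stretch are uncertain.

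The secreted products divided. STC1 (ENSG00000159167, chromosome 8, 23841915 to 23854807, minus strand), a glycoprotein hormone, was at 4.73 and 5.29 RPKM in KO and at 12.2 and 10.9 RPKM in WT libraries, a log2 fold change of -1.14 (standard error 0.11) or 2.20-fold lower. Its 64 tested neighbours had a median of 0.054. ANGPTL4 (ENSG00000167772, chromosome 19, 8363289 to 8374373, plus strand), a secreted inhibitor of lipoprotein lipase, was low in every library, at 1.71 and 1.39 RPKM in KO and 2.07 and 2.78 RPKM in WT, with 44 to 71 counts. The groups did not overlap, but their nearest libraries were closer to each other than the WT replicates were. Its log2 fold change of -0.56 had a standard error of 0.30 and ran from -0.76 to -0.34 with a library left out, which makes it the least certain of the 10 values. After the correction for GC content and length it was -0.84. The 214 tested genes within 5 Mb of ANGPTL4 had a median of 0.23. Of these, 88 were called higher and 12 lower (edgeR, adjusted p under 0.05), beside 20.4% and 19.1% over all genes.

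VEGFA (ENSG00000112715, chromosome 6, 43770184 to 43786487, plus strand), the main growth factor for blood vessels, was higher in KO cells. It was at 23.7 and 25.2 RPKM in KO and at 19.1 and 20.9 RPKM in WT libraries, from 5466 and 5157 counts against 3521 and 3443. The lowest KO library lay above the highest WT library, the distance between the group means was larger than that between replicates, and the log2 fold change was 0.36 (standard error 0.058), or 1.29-fold higher. It remained above 0 in each of the alternatives run, between 0.28 and 0.48. The 78 tested neighbours of VEGFA had a median of -0.20. Of these, 23 were called lower, 2 higher and the rest neither (edgeR, adjusted p under 0.05). Over all genes 19.1% were called lower and 20.4% higher.

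ADM (ENSG00000148926, chromosome 11, 10304680 to 10307397, plus strand), or adrenomedullin, is a peptide hormone that widens blood vessels and is induced strongly by hypoxia in many cells. It was at 36.7 and 34.2 RPKM in KO and at 26.3 and 28.7 RPKM in WT libraries, so both KO libraries were above both WT libraries. The rise came to 0.44 as a log2 fold change (standard error 0.085), or 1.35-fold higher, and after the correction for GC content and length 0.26. The 63 tested genes within 5 Mb had a median of -0.18, on the other side of 0. Of these, 22 were called lower and 6 higher (edgeR, adjusted p under 0.05), beside 19.1% and 20.4% over all genes.

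The 10 genes thus did not share a single profile. Set against their mean over the libraries, the log2 CPM of the 10 genes averaged -0.50 and -0.39 in KO and 0.39 and 0.50 in WT libraries. PFKFB4 lay nearest to this mean profile, at a Euclidean distance of 0.123 in log2 units over 4 libraries, followed by P4HA1 at 0.258, while PPFIA4 at 1.47, ADM at 1.34, VEGFA at 1.26 and NDRG1 at 1.20 lay furthest. Among 9819 other genes whose mean log2 CPM reached 3, PCGF5, C9orf84, SGK196, KIF20B and ACAP2 were nearest to it, at distances from 0.0468 to 0.0719. With 4 libraries in 2 groups such a distance reflects little more than the size of the fold change.

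A further question was whether related genes moved as the 10 did. Paralogs had a median log2 fold change of 0.14 over the 20 of 25 with enough counts. Of these, 3 (15%) were called lower and 5 (25%) higher, close to the 19.1% and 20.4% over all genes. The higher ones included PPFIA3, a liprin like PPFIA4, which rose from 0.472 ± 0.037 to 1.05 ± 0.095 RPKM (SD, n = 2 each; log2 fold change 1.22, edgeR adjusted p = 0.00155). They also included PFKFB3, which makes the same metabolite as PFKFB4 with a stronger kinase side, and PFKFB2. PFKFB3 rose from 21.5 ± 0.62 to 30.3 ± 0.33 RPKM (SD, n = 2 each; log2 fold change 0.56, edgeR adjusted p = 9.99e-09), and PFKFB2 had a log2 fold change of 0.55 (edgeR adjusted p = 1.23e-05).

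The lower paralogs were PGF, a placental growth factor of the VEGF family, NDRG4 and ANGPTL7. Their log2 fold changes were -0.79, -0.53 and -2.44, each with an edgeR adjusted p of 0.019, and ANGPTL7 held 3 and 2 counts in KO libraries, which makes it 4.93-fold lower with KO set at 3 counts a library. These calls were fragile. PGF and NDRG4 lost their calls with limma on log2(RPKM + 1), and DESeq2 gave no adjusted p for ANGPTL7, so it could not call that gene. PGF also lost its call without KO replicate 2 or WT replicate 2, NDRG4 without KO replicate 2 or either WT replicate, and ANGPTL7 without any 1 library, while DESeq2 called 0 of the 18 paralogs it tested as lower, also at an unadjusted p under 0.05.

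Within the families, the share of the summed RPKM held by each of the 10 genes except ANGPTL4, whose family was not summed, was a further way to describe the shift. NDRG1 made up 84.2 ± 1.70% of the NDRG family in WT and 59.1 ± 0.68% in KO libraries (SD, n = 2 each). PFKFB4 went from 14.2 ± 0.79% to 5.98 ± 0.61%, STC1 from 36.7 ± 1.92% to 17.5 ± 1.48% of STC1 and STC2 together, and MXI1 from 35.7 ± 3.23% to 17.3 ± 2.11% of the MXI1 and MXD genes. PPFIA4 fell from 5.57 ± 0.75% to 1.02 ± 0.29% of the liprins alpha, whose sum was 28.0 and 28.3 RPKM in WT and 28.2 and 28.6 RPKM in KO libraries. P4HA1 went from 84.5 ± 1.36% to 71.8 ± 2.35% of its family. VEGFA held 17.8 ± 0.81% of its family in WT and 17.6 ± 0.36% in KO libraries, a difference smaller than the spread between replicates. ERO1L and ADM were over 96% of theirs in every library. These shares use the same libraries that served to choose the genes and are given without a test.

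**Figure D3:**
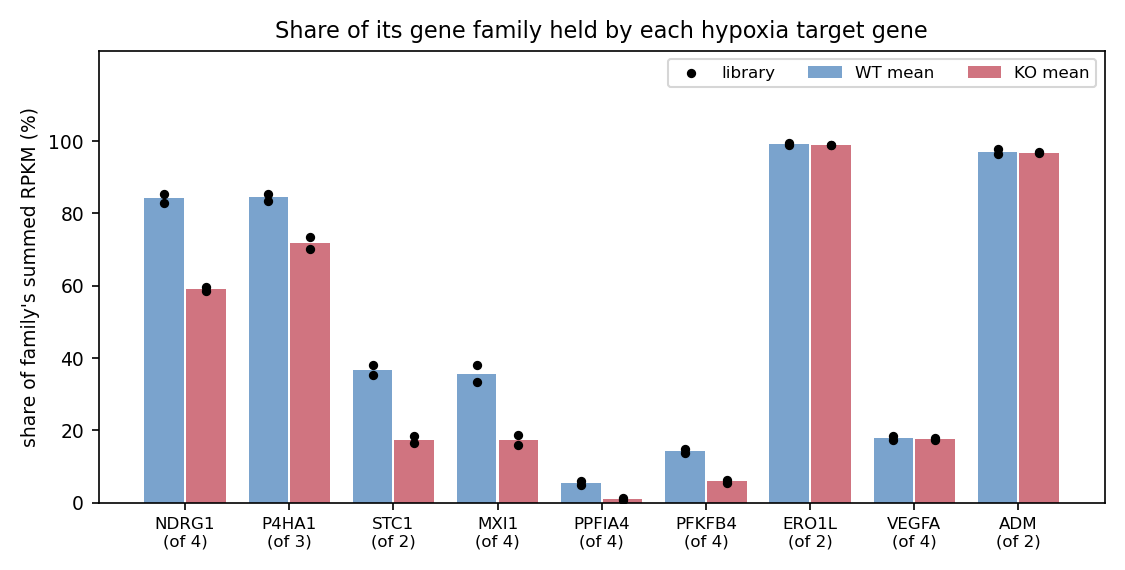
Share of the summed RPKM of a gene family held by 9 of the 10 genes, in percent, with bars for the mean of the WT and KO libraries and points for each library. The share was lower in KO for NDRG1, P4HA1, STC1, MXI1, PPFIA4 and PFKFB4, and within the replicate spread for VEGFA.

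Proteins that work with the 10 gene products were examined in the same fit. Of 14 listed, 12 were analysed and 9 had enough counts, with 3 (33.3%) called higher and 2 (22.2%) lower, beside 20.4% and 19.1% over all genes. The neuropilins, which are co-receptors for VEGFA, both rose. NRP1 was at 1.41 ± 0.15 RPKM in WT and 2.88 ± 0.052 RPKM in KO (SD, n = 2 each), a log2 fold change of 1.10 (edgeR adjusted p = 1.03e-06), and NRP2 went from 1.59 and 1.41 RPKM in WT to 3.23 and 3.47 RPKM in KO (log2 fold change 1.23, edgeR adjusted p = 1.62e-08). The VEGF receptor KDR held 5 to 11 counts a library and FLT1 at most 2, too few for a test.

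P4HB, which is both the partner subunit of P4HA1 and the disulphide isomerase that ERO1L oxidises, rose from 172 ± 10.3 to 209 ± 3.65 RPKM (SD, n = 2 each; log2 fold change 0.35, edgeR adjusted p = 1.72e-06) and so moved opposite to both. CALCRL, which forms a receptor for adrenomedullin only together with a RAMP protein, fell from 0.644 ± 0.21 to 0.167 ± 0.022 RPKM (SD, n = 2 each; log2 fold change -1.88, edgeR adjusted p = 0.000798), at 15 to 63 counts. It did not pass the threshold without WT replicate 1, where its log2 fold change was -1.48. SIN3A, the corepressor that MXI1 recruits, fell by 0.40 on the log2 scale (edgeR adjusted p = 9.35e-06). RAMP2 held 0 to 4 counts a library, too few for a test, and RAMP3 and LPL were not analysed here.

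Other hypoxia targets outside glycolysis, a list of 50 genes taken from general knowledge of the response, moved in both directions. Of the 48 with enough counts, 15 were called lower, 31.3% beside the 19.1% over all genes, and 9 were called higher, 18.8% beside 20.4%. Their median log2 fold change was -0.13. The largest fall in the list was in CA9, included with its fall already known, a carbonic anhydrase of the cell surface and a standard marker of HIF activity, from 11.4 ± 1.66 to 0.388 ± 0.24 RPKM (SD, n = 2 each; log2 fold change -4.76, edgeR adjusted p = 2.33e-16). CA9 held only 17 and 6 counts in KO libraries, so the size of its fall is uncertain. Its log2 fold change ran from -5.59 to -4.28 with a library left out and was -3.16 on the log2(RPKM + 1) scale. IGFBP3, a carrier of insulin-like growth factors, fell from 58.5 ± 7.07 to 13.2 ± 0.019 RPKM (SD, n = 2 each; log2 fold change -2.07, edgeR adjusted p = 8.68e-21). PLOD2, which hydroxylates lysines in collagen, fell from 38.9 ± 1.24 to 13.5 ± 0.75 RPKM (SD, n = 2 each; log2 fold change -1.46, edgeR adjusted p = 2.08e-18). The collagen prolyl hydroxylase P4HA2, the close relative of P4HA1, is counted both in this list and among the paralogs. It had a log2 fold change of -0.055 with a standard error of 0.13, and was singled out after its value was seen.

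Among the 9 that rose were CITED2, which competes with HIF for its coactivator and so restrains it, BHLHE40, a transcriptional repressor, and ERRFI1, an inhibitor of the EGF receptor. CITED2 rose from 18.4 ± 2.22 to 31.3 ± 0.84 RPKM (SD, n = 2 each; log2 fold change 0.84, edgeR adjusted p = 4.48e-09). BHLHE40 had a log2 fold change of 0.59 (edgeR adjusted p = 3.92e-06) and ERRFI1 of 0.51 (edgeR adjusted p = 7.47e-08). The remaining 24 tested genes did not pass the threshold, and CXCR4 and PLIN2 had too few counts for a test.

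**Figure D4:**
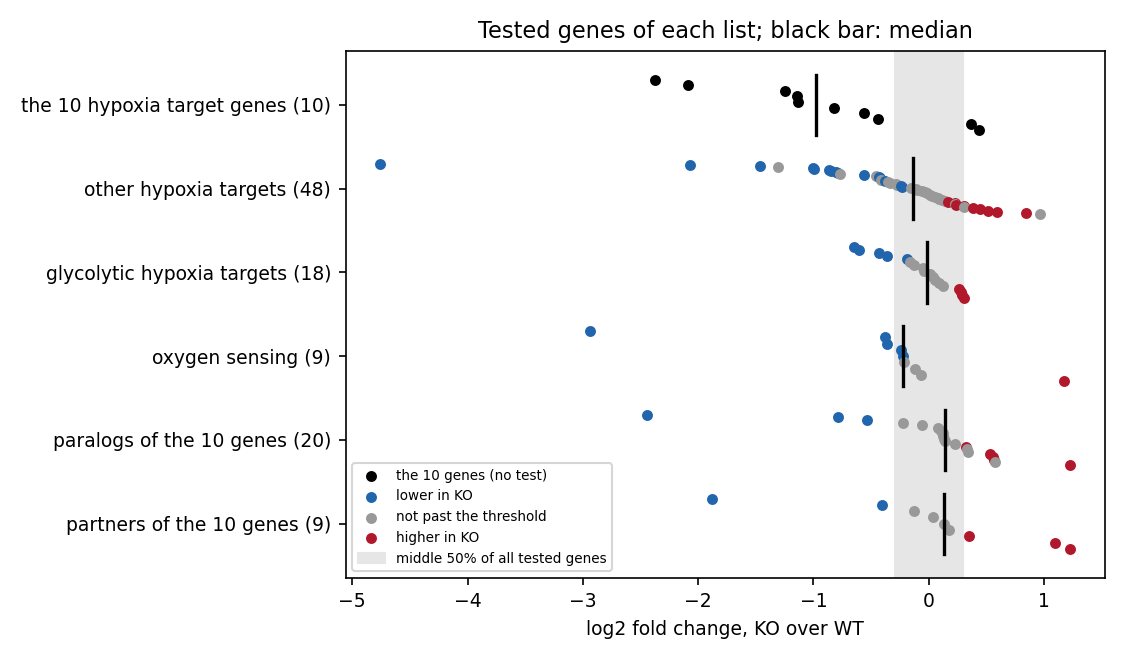
Log2 fold change of KO over WT for every tested gene of each list, with the number tested in brackets, blue and red points for genes called lower and higher at an adjusted p under 0.05, grey points for the rest, black points for the 10 genes, which carry no test, and a bar at each median. The grey band holds the middle 50% of all tested genes, from -0.29 to 0.29 for scale only, and points of every list lie on both sides of 0.

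The glycolytic arm of the response is set beside the 10 genes, and whether the lists differ was not tested. Its 18 genes had a median log2 fold change of -0.015 and ranged from -0.65 in ENO2 to 0.31 in SLC16A3, the lactate exporter, with 5 (27.8%) called lower and 4 (22.2%) higher, beside 19.1% and 20.4% over all genes. ENO2, an enolase, fell with an edgeR adjusted p of 0.0076, PDK1, which holds pyruvate back from the mitochondria, by 0.61 on the log2 scale (edgeR adjusted p = 0.000659), and LDHA, which makes lactate, by 0.43 (edgeR adjusted p = 6.23e-10). ENO1 and ALDOC had log2 fold changes of 0.28 and 0.29 (edgeR adjusted p = 1.47e-06 and 0.0114), and the edgeR adjusted p of SLC16A3 was 7.81e-05. ENO2 lost its call with DESeq2 and without WT replicate 2, where 3 genes of the list were lower. ALDOC lost it with DESeq2, with library totals only (0.22), after the GC and length correction (0.14), and without KO replicate 1 or WT replicate 2. With that correction 9 genes of the list were lower.

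Of the genes that sense oxygen, 9 of 10 had enough counts, with a median log2 fold change of -0.22. Of these, 5 (55.6%) were called lower and 1 (11.1%) higher, beside 19.1% and 20.4% over all genes. HIF1A, the alpha subunit best known for acute hypoxia and named here after its value was seen, was at 47.1 and 49.8 RPKM in KO and at 55.0 and 51.6 RPKM in WT libraries. Its log2 fold change of -0.07 (standard error 0.060) did not pass the threshold (edgeR adjusted p = 0.383), and messenger RNA does not report the stability of the protein. EPAS1, which encodes HIF2 alpha, was the gene called higher, from 15.4 ± 0.38 to 33.1 ± 2.94 RPKM (SD, n = 2 each; log2 fold change 1.17, edgeR adjusted p = 3.22e-16). EGLN3, a prolyl hydroxylase that is itself induced by HIF, fell from 15.5 ± 1.52 to 1.92 ± 0.24 RPKM (SD, n = 2 each; log2 fold change -2.94, edgeR adjusted p = 1.12e-18). ARNT fell by 0.38 on the log2 scale (edgeR adjusted p = 0.000241) and EGLN1 by 0.36 (edgeR adjusted p = 0.00392). The count of 5 lower dropped to 3 without KO replicate 1 or WT replicate 1 and to 2 without WT replicate 2. EGLN1 lost its call without KO replicate 1 or WT replicate 2, with limma on log2(RPKM + 1), and after the GC and length correction, where its log2 fold change was -0.14.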

How the data were processed

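RNA from 2 ATAD3A KO and 2 parental HN12 cultures was sequenced. The authors deposited, per gene, raw read counts and RPKM (reads scaled to gene length and to library size). The submitters' processing notes name CASAVA, STAR, HTSeq, edgeR, DESeq2 and hg19, without a role or an order for each. Whether reads were counted by strand, and which KO clone was sequenced, is not given in the sources used here. A build difference or unresolved strand can move counts between overlapping genes.

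The deposited counts were tested with edgeR 4.0.16 in R 4.3.3 (filterByExpr, TMM, quasi-likelihood test, Benjamini-Hochberg adjustment over 15104 genes, threshold 0.05) and also with DESeq2 1.42.0 and limma 3.58.1 on log2(RPKM + 1). The test the study names, from the older DESeq package, was not run. Levels are given in the deposited RPKM. Positions were joined by Ensembl identifier from GENCODE on GRCh38 and promoters by symbol from RefSeq; no coordinate was taken from the files. Neighbours are tested genes starting within 5 Mb. The edgeR script was tested on simulated data.

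The 10 genes and all lists were chosen with earlier results of these data known. Named in the text are ATAD3A, the 10 genes, in each list the 3 called genes with the largest change in each direction at an average log2 CPM of at least 1, CA9, called genes at 3 counts or fewer in both libraries of a group, and the 5 genes nearest in profile. HIF1A and P4HA2 fall outside this rule and were named after their values were seen, and markers, receptors and genes without a test are named as list members. Replicates are described as independent cultures of 1 line, so p-values measure the spread between cultures. Deviations of same-numbered libraries correlated at r = -0.0625 over 11106 genes, so no shift shared by replicate number was seen. This value cannot show whether same-numbered cultures were handled together.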

Additional observations from a re-analysis of the deposited data

How the results depend on the processing

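Alternatives were DESeq2, its size factors in edgeR, library totals, other count filters, limma on log2(RPKM + 1), a correction for GC content and length, a replicate block, and each library left out. No result reversed under them. The replicate block was run although no shift shared by replicate number was seen. With it, 2810 genes were lower and 3010 higher, against 2891 and 3074 without it. The counts of the lists run with the block did not change (glycolytic and oxygen sensing genes called higher were not run). All genes called lower fell to 1881 with DESeq2, which called 2165 higher, and to 1920 with the GC and length correction, which called 3442 higher. With library totals only 3615 were lower and 2508 higher, so the balance of calls depends on the scaling. Glycolytic genes called lower went from 5 to 9 with that correction. Oxygen sensing genes called lower went from 5 to 3 with DESeq2, 3 without a count filter and 2 with the correction. Paralogs called lower went from 3 to 0 with DESeq2, which also had 0 at an unadjusted p under 0.05, and to 1 with limma. Of the 3, ANGPTL7 had no adjusted p with DESeq2. The median of the 10 genes was -0.84 with limma, where the added 1 shrinks low levels. For the other changes the cause was not tested.

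With 1 library left out, where the lone sample is assumed to vary like the other group, genes called lower ranged from 2013 to 2751 and higher from 2403 to 2915. Other hypoxia targets ranged from 13 to 16 lower and 7 to 9 higher, glycolytic genes from 3 to 6 lower, oxygen sensing genes from 2 to 4 lower, paralogs from 1 to 2 lower with 5 higher, and partners from 1 to 2 lower with 3 higher. The lowest values came without WT replicate 2 for glycolytic and oxygen sensing genes, without KO replicate 2 or either WT replicate for paralogs, and without WT replicate 1 for partners. The median of the 10 genes ranged from -1.05 to -0.89. Of 28 named genes with a test, 7 lost their call under at least 1 alternative: ENO2, ALDOC, EGLN1, PGF, NDRG4, ANGPTL7 and CALCRL. With 2 cultures a group, genes at low counts such as ANGPTL4 and PPFIA4 have wide errors.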
